A study of Mus musculus with 8 samples.

Results

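The Notch pathway was described through 10 of the 32285 genes counted in single cells of the fetal mouse kidney. The genes were taken by symbol and by their roles. *Jag1* and *Dll1* encode ligands, *Notch1*, *Notch2* and *Notch3* receptors, *Lfng* a modifier of the receptors, and *Hes1*, *Hes5*, *Hey1* and *Heyl* are genes that Notch signalling switches on. The members were picked by name and role, with earlier results of these data known. The study deleted *Trim28*, which encodes a corepressor of transcription, in nephron progenitor cells (NPCs) and asked how nephrons then form.

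The kidneys of 4 male embryos were sequenced as a single pool. Mice 1 and 2 (*Trim28* Δ/Δ, tagged ko) carried a floxed *Trim28* allele on both chromosomes and a Six2-cre transgene, which recombines the allele in NPCs and in the nephron cells that descend from them. Mice 3 and 4 (*Trim28* f/f, tagged wt) carried the floxed allele without the deletion. Stroma, endothelium and the ureteric bud lineage do not descend from the cells that express the transgene. The labels give the stage as E17.5, while the study's text names a stage 1 day later. Each mouse was recognised by a cell multiplexing oligonucleotide (CMO), a DNA tag read in a library of its own, and the mouse is the replicate (2 per genotype). The labels do not say whether the mice were littermates.

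Notch is a receptor that is cut when a ligand on a neighbouring cell binds it. The freed intracellular part enters the nucleus and joins RBPJ, a DNA-binding protein, on genes of the *Hes* and *Hey* families, which encode repressors of transcription. In the forming nephron, Notch signalling, above all through NOTCH2, is known to be needed for the proximal tubule and podocyte fates, and *Dll1*, *Jag1* and *Lfng* are known from the renal vesicle and from the middle of the S-shaped body that grows out of it.

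Upstream sequences are shown for *Hes5* and *Lfng*, since both hold repeated letters of the RBPJ motif, and for *Dll1*, since it is the gene with the called difference described further on. They come from RefSeq on GRCm38.p6, which had an entry for 7 of the 10 members and none for *Hes1*, *Hey1* and *Heyl*. Each is written 5′ to 3′ on the strand of the gene and ends before its first annotated exon in GENCODE M21. Capitals mark TGGGAA or, for the other strand, TTCCCA.
Hes5, chr4:154960673-154960922, plus strand: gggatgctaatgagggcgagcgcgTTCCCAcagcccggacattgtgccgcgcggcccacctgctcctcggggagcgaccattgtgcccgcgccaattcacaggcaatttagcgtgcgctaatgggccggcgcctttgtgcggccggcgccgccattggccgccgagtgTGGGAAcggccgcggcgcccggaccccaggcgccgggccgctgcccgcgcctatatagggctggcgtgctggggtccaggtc
Lfng, chr5:140607091-140607319, plus strand: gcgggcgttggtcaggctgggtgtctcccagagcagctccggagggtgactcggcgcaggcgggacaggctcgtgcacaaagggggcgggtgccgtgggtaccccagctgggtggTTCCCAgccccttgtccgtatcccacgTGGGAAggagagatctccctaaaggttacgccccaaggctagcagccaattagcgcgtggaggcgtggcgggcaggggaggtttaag
Dll1, chr17:15376933-15377182, minus strand: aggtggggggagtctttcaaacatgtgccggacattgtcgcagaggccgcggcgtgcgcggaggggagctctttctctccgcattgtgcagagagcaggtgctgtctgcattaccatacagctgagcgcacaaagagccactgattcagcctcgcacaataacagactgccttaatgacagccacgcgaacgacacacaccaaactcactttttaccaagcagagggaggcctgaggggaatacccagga
The motif occurred 2 times in the window of *Hes5* and 2 times in that of *Lfng*. Of 32851 upstream windows of 250 bases, 21.6% held it at least once and 2.77% held it 2 times or more. It was not found in the windows of *Jag1*, *Notch2* or *Notch3* or in the printed window of *Dll1*. The windows of *Jag1*, *Lfng* and *Notch2* reach into the annotated gene, and the window of *Notch1* and another of *Dll1* lie wholly inside it, so that nothing is said of the sequence upstream of *Notch1*. A match is a stretch of letters and does not show that RBPJ binds there.

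Of 19272 barcodes kept as cells, 7363 carried the tag of a named mouse. Mice 1 to 4 gave 1316, 1491, 2749 and 1807 cells, with median depths of 16386 to 17354 unique molecular identifiers (UMIs, each standing for 1 captured RNA molecule) per cell. Clusters were built without the genes of the Notch pathway and were named from marker genes, with the ending "-like". The best match of renal vesicle-like cells was to the renal vesicle markers (mean log2 ratio 1.69), followed by the NPC markers (1.46). Their leading genes held *Six2* and *Eya1* beside *Tmem100* and *Wnt4*. Of 23 classes, 19 had at least 10 cells in every mouse and were compared between genotypes. *Trim28* was called lower in mice 1 and 2 in 10 of these 19 classes, with log2 changes from -2.88 in renal vesicle-like cells to -1.53 in PT-like cells, and its level in stroma-like cells was 105 and 97.6 against 85.0 and 113 counts per 1000000 UMIs (CPM). The counted 3′ ends lie outside the deleted segment, so that these values show the RNA level and not the deletion. Mouse 3 stood apart from the others in its cells. It held 171 of the 172 cells of cluster 15, only 3 of the 324 collecting duct principal-like cells and 17 of the 391 cells of cluster 6, and the changes with an unadjusted p under 0.05 in the 19 classes were therefore also computed without it, where the gene still passed the filter on low counts. At a finer clustering (resolution 1.2 in place of 0.8), about as many of its 420 early PT-like and 208 loop of Henle-like cells lay in a cluster with few cells of mice 1 and 2 as outside it. Of the early PT-like cells, a cluster of 281 held 7, 11, 227 and 36 cells of mice 1 to 4, and a cluster of 107 cells, nearly all of them loop of Henle-like, held 0, 0, 105 and 2. Cluster 9 was also divided, and its smaller group of 104 cells held 27 of the 49 cells of mouse 1, 17 of the 64 of mouse 2, 36 of the 148 of mouse 3 and 24 of the 111 of mouse 4.

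The levels below are UMIs of a gene per 1000000 UMIs of all genes in a class of a mouse. They are compared between classes and not between genes, and carry no test, because the classes were built from the same cells. Free RNA in the droplets, read from barcodes with 10 to 100 UMIs, contributed an estimated 2.41% of the UMIs in intercalated-like cells and 29.1% in podocyte-like cells, the ends of the range over the 19 classes. The tracer was haemoglobin transcripts, except in erythroid-like cells, where it was *Spp2*, *Fbp1*, *Gatm* and *Slc34a1*. In whichever of the 19 classes had the highest level of a member, free RNA could account for at most 5.41 CPM of it.

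*Jag1*, the ligand mutated in Alagille syndrome, was found at similar levels through most of the forming nephron and in cluster 6. Cluster 1, a class led by cell cycle genes (*Ube2c*, *Cenpf*, *Top2a*) whose next best markers were those of the renal vesicle and the early distal segment, had a mean of 126.5 CPM with a range of 90.8 to 166 over the 4 mice. Early PT-like cells followed with a mean of 119 CPM, then cluster 6 with 107 CPM. Cluster 6 had no name and was led by *Aadat*, *Cryab* and *Slc7a12*. Its best match was to the PT markers (mean log2 ratio 0.614), followed by the early PT markers (0.590). PT-like cells had 3.37 for the PT markers, and a name needed at least 0.5 of the highest ratio of that name. Cluster 9, led by *Pcp4*, *Lsp1* and *Wt1*, had 103 CPM. NPC-like cells stood at the other end with 15.6 CPM (11.0 to 23.0) and mature PT-like cells with 18.6 CPM. These ranges do not overlap with those of the classes named before them. In the small cluster 21, in which all 8 endothelial markers were raised beside *Sox17* and *Gja4*, *Jag1* stood at 139 to 251 CPM in the 4 mice, while endothelial-like cells had 19.2 to 31.1 CPM.

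*Dll1*, the other ligand, had a narrower pattern. Its mean was 63.7 CPM in cluster 1 (39.2 to 85.0), 47.0 CPM in intercalated-like cells, 33.2 CPM in early PT-like cells (24.7 to 47.2) and 30.5 CPM in cluster 5 (13.5 to 56.1). NPC-like cells had 12 *Dll1* UMIs in all, none of them in mice 1 and 2. When cluster 1 was divided by the finer clustering, most of its *Dll1* fell into a group of 337 cells, where the mice had 127, 77.9, 126 and 107 CPM, and the other large group, led by *Fgf8*, had 10.2 to 20.4 CPM. The finer group of 337 cells was led by *Dll1* itself and by cell cycle genes. Its best match was to the early PT markers (mean log2 ratio 1.11), followed by those of the renal vesicle (0.63). The best match of the group led by *Fgf8* was to the early distal markers (1.06). The order of the classes is loose for both ligands. The ranges of neighbouring classes overlapped in every one of the 18 neighbouring pairs for *Dll1* and in all but 1 for *Jag1*.

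The receptors overlapped in the forming nephron and differed outside it. Among the 19 classes *Notch1* was highest in endothelial-like cells at 169 CPM (152 to 183), followed by renal vesicle-like cells at 119 CPM (85.3 to 150.3). It was higher still in the small cluster 21, at 185 to 229 CPM over the 4 mice. *Notch2* had its highest levels among the 19 classes in cluster 9 at 57.4 CPM (48.0 to 67.1) and in renal vesicle-like cells at 48.0 CPM (45.5 to 54.5), whereas endothelial-like cells had 6.92 CPM, below the 12.7 CPM that free RNA could give. *Notch3*, known from vascular smooth muscle, was highest in mural-like cells at 154 CPM (109.8 to 179) and came next in cluster 14 at 59.9 CPM, a class led by *Pdgfrb* and *Ebf1*. Early PT-like cells had 7.88 CPM of *Notch3* beside 76.0 CPM of *Notch1* and 33.5 CPM of *Notch2*. NPC-like cells held *Notch1* at 26.1 CPM and *Notch2* at 26.6 CPM, and all 4 mice had both.

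*Lfng*, a glycosyltransferase that extends sugars on Notch and so changes its response to ligands, was highest in the same class as *Dll1*. Its mean was 32.9 CPM in cluster 1 (25.5 to 41.9) and 29.3 CPM in early PT-like cells (16.4 to 44.0), while NPC-like cells had a mean of 2.99 CPM and mature PT-like cells one of 2.47 CPM. Outside the nephron it was also present in immune-like cells at 23.2 CPM (16.4 to 25.9).

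**Figure D1:**
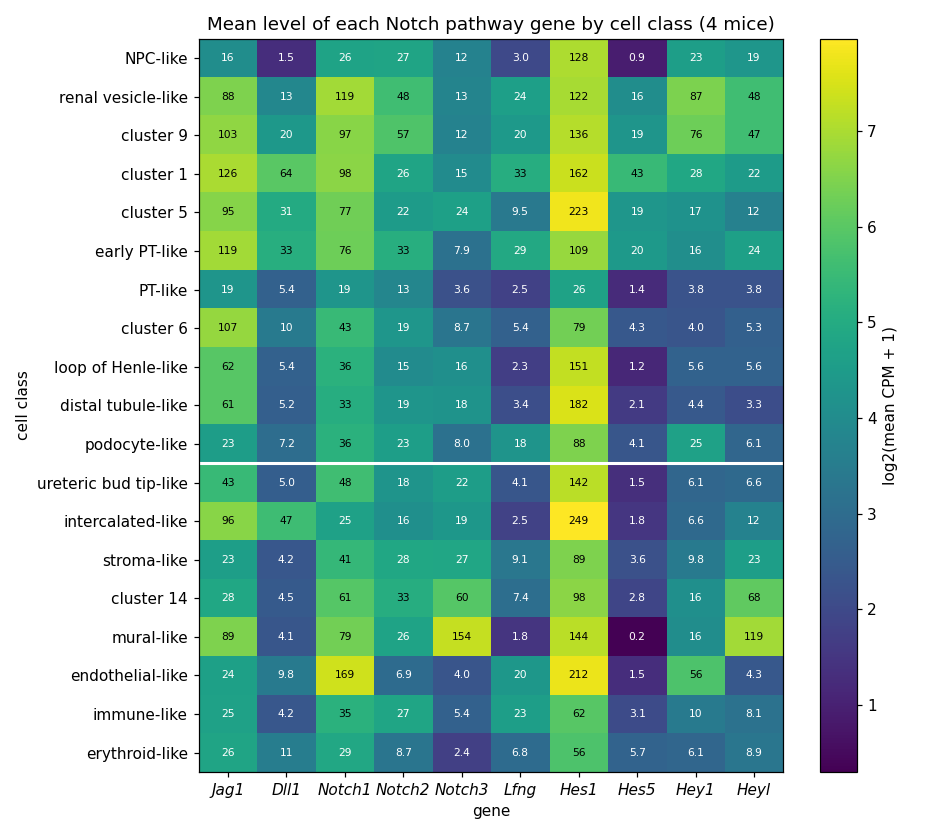
Mean level of each gene (columns) in each class (lines), as log2(mean CPM + 1) over the 4 mice, with the mean CPM printed in the cell; classes above the white line belong to the nephron lineage. Read down each column: Hes5 is near 0 outside the forming nephron, Notch1 is highest in endothelial-like cells (169 CPM) among the classes drawn, and Notch3 (154 CPM) and Heyl (119 CPM) peak in mural-like cells.

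The target genes were spread unequally. *Hes5* was the most restricted of the 10. Cluster 1 had a mean of 43.0 CPM (28.4 to 70.5), and early PT-like cells, cluster 5, cluster 9 and renal vesicle-like cells had means of 15.6 to 20.4 CPM, while every other class was at or below 5.68 CPM, the value of erythroid-like cells with 9 UMIs. NPC-like cells had 4 *Hes5* UMIs in 344 cells. *Hes1*, in contrast, was present in every class. Among the 19 classes it went from 25.5 CPM in PT-like cells (22.7 to 27.9) to 249 CPM in intercalated-like cells (172 to 319). It was higher still in collecting duct principal-like cells, with 337, 297 and 239 CPM in mice 1, 2 and 4, a class not compared between genotypes. The same holds for cluster 15, which was nearly all from mouse 3 and had 417 CPM of *Hes1* in that mouse. PT-like cells were thus the only class tested whose *Hes1* range lay below those of all others except erythroid-like cells, whose range began at 23.7 CPM.

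Among the 19 classes *Hey1* was highest in renal vesicle-like cells at 86.8 CPM (63.0 to 109.8) and in cluster 9 at 75.6 CPM (46.4 to 117), with endothelial-like cells at 55.5 CPM, and it stood at 64.7 to 177 CPM in the small cluster 21. *Heyl* followed *Notch3*, with 119 CPM in mural-like cells (90.1 to 194) and 67.9 CPM in cluster 14, and came next in renal vesicle-like cells at 47.8 CPM and cluster 9 at 47.5 CPM. PT-like cells had 3.77 CPM of *Hey1* and 3.78 CPM of *Heyl*.

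For each member, the genes with the most similar pattern were taken by Pearson's r over the 19 class means of log2(CPM + 1), against 10403 genes of at least 20 CPM in some class. These values describe class means that share libraries and carry no test. *Hes5* was closest to *Lhx1* (r = 0.87), a transcription factor of the early nephron, *Lhx1os* and *Pcsk2*. *Dll1* was closest to *Prss23* (r = 0.77), *Hes5* (r = 0.75) and *Svopl*, and *Lfng* to *Hes5* (r = 0.76), *Oxtr* and *Zdhhc2*. *Jag1* was closest to *Prss23* (r = 0.84), *Emid1* and *Syne2*. *Notch1* was closest to *Fbxo45* (r = 0.86), *Nin* and *Ddah2*, and *Notch2* to *Ptgr1* (r = 0.85), *Cyp1b1* and *Igsf9*. *Notch3* was closest to *Nfatc4* (r = 0.91), *Klhl23* and *C630043F03Rik*, *Heyl* to *Gucy1b1* (r = 0.88), *Cox4i2* and *Mark1*, *Hey1* to *Chst1* (r = 0.85), *Sh3gl3* and *Pdzd2*, and *Hes1* to *Asap2* (r = 0.85), *Zbtb1* and *Csnk1e*.

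The genotypes were compared class by class on the UMIs summed per mouse, with edgeR's quasi-likelihood test and Benjamini-Hochberg adjustment over all genes of the class. A gene was called when its adjusted p was below 0.05. The 10 members gave 130 tests over the 19 classes, since a member was tested only where its counts passed the filter on low counts, and all 10 passed in cluster 1, cluster 5, cluster 9, early PT-like cells and renal vesicle-like cells. A single test was called, *Dll1* in cluster 5. Over all genes and classes, 564 of 166172 tests (0.339%) were called. An unadjusted p under 0.05 was found in 22 of the 130 tests (16.9%), beside 6.9% of all tests. The wider list of 51 pathway genes described at the end, which includes the 10 members, had it in 42 of 614 tests (6.84%). These tests share the same 4 mice, and the members were chosen with earlier results of these data known. Both *Trim28* Δ/Δ mice lay below both *Trim28* f/f mice in 23 of the 130 tests (17.7%), beside 15.2% of the tests of all genes, and above them in 23 (17.7%), beside 21.6%. With DESeq2 in place of edgeR no member was called.

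*Dll1* fell in cluster 5 of the *Trim28* Δ/Δ kidneys. Cluster 5 held 402 cells, was led by *Fgf8*, *Spon1*, *Epha4*, *Sfrp2*, *Ccnd1*, *Sim2* and *Lgr5*, and had no name, because its best match was to the early distal markers but none of them was among its leading genes. *Dll1* stood at 17.9 and 13.5 CPM in mice 1 and 2 and at 56.1 and 34.6 CPM in mice 3 and 4. Both *Trim28* Δ/Δ mice were below both *Trim28* f/f mice, with means of 15.7 ± 3.10 and 45.3 ± 15.2 CPM (SD, n = 2 mice each). The log2 change was -1.61 (SE 0.31, adjusted p = 0.031), in a class where 0.593% of the genes tested were called. These levels rest on 18, 22, 141 and 67 UMIs, of which free RNA could give at most 2.32 CPM in any mouse. Without mouse 3 the log2 change was -1.21 (adjusted p = 0.011), and the call was lost without mouse 2 (log2 change -1.39, adjusted p = 0.33) and with DESeq2 (log2 change -1.59, adjusted p = 0.078).

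The share of cells with a *Dll1* UMI was also lower in both *Trim28* Δ/Δ mice. After each cell was thinned to 6800 UMIs, 6.67% of the cells of mouse 1 (95% exact binomial interval 1.85 to 16.2%) and 8.05% of those of mouse 2 (3.30 to 15.9%) held one, against 17.7% in mouse 3 (11.9 to 24.8%) and 12.96% in mouse 4 (7.27 to 20.8%). Before thinning the shares were 13.3%, 11.5%, 22.4% and 19.4%. Stroma-like cells, which should lack *Dll1*, had shares of 1.16 to 3.03% after thinning and of 2.33 to 3.18% before it, at median depths of 10320 to 11170 UMIs against 14880 to 16680 in cluster 5. The intervals of the mice overlap and cover counting error only.

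*Dll1* lies on chromosome 17 at 15367354-15376872 (GRCm38, minus strand), with a long noncoding RNA, *A930024N18Rik*, across its first exons on the other strand. Some markers of the renal vesicle moved with it. *Lhx1* stood at 213 and 204 CPM in mice 1 and 2 against 433 and 453 CPM in cluster 5 (log2 change -1.13, SE 0.12, adjusted p = 3.2e-04), and *Fgf8*, a growth factor of the early nephron, at 29.9 and 62.1 against 159.9 and 105 CPM (log2 change -1.504, adjusted p = 0.024). The whole list of 5 renal vesicle markers summed to 1464 and 1321 CPM in mice 1 and 2 against 1808 and 1859.8 CPM, with 3 of the 5 below and 1 above in both *Trim28* Δ/Δ mice. The 6 early distal markers summed to 981 and 968 against 1043 and 959 CPM, with 3 below and 1 above in both *Trim28* Δ/Δ mice. Of these, *Irx3* had a log2 change of -1.46 (adjusted p = 0.13) and *Irx1* one of 0.54 (adjusted p = 0.14). The 7 distal tubule markers summed to 706 and 555 against 477 and 569 CPM, with 4 above and 0 below in both *Trim28* Δ/Δ mice. The 5 early PT markers summed to 183 and 178 against 252 and 172 CPM, and *Top2a*, *Ube2c* and *Cenpf* together to 201 and 257 against 244 and 231 CPM. Whether a different mix of cells within cluster 5 accounts for the lower *Dll1* was not tested.

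Both *Trim28* Δ/Δ mice lay below both *Trim28* f/f mice for *Dll1* in 5 of the 19 classes, cluster 5 among them, and above them in 3. Of the 10 classes in which it was tested, this was 3 and 1, beside 15.2% below and 21.6% above in the tests of all genes. The other four of the 5 were at low levels. PT-like cells had 1.38 and 5.39 against 5.74 and 9.21 CPM (log2 change -1.14, adjusted p = 0.52), and cluster 6, where mouse 3 had 17 cells, had 5.11 and 7.13 against 19.3 and 8.55 CPM (log2 change -0.88, adjusted p = 0.80, 0.262% of the genes called). Distal tubule-like cells had 3.99 and 2.60 against 7.93 and 6.25 CPM and NPC-like cells had 0 and 0 against 3.94 and 2.02 CPM, with too few UMIs to be tested. The 3 classes in which *Dll1* was above were intercalated-like cells, with 80.4 and 43.98 against 19.9 and 43.6 CPM (log2 change 0.88, adjusted p = 0.90), podocyte-like cells, with 12.1 and 10.7 against 1.07 and 5.12 CPM, and stroma-like cells, with 7.32 and 3.80 against 2.83 and 3.01 CPM. In cluster 1, where its level was highest, it stood at 85.0 and 39.2 CPM against 80.3 and 50.4 CPM, and each genotype had a high and a low mouse (log2 change -0.10, SE 0.35, adjusted p = 0.98). Early PT-like cells had 24.7 and 47.2 against 26.1 and 34.9 CPM (log2 change 0.28, SE 0.29, adjusted p = 0.87). In the largest finer cluster of these cells, which held 80, 109, 191 and 125 cells of the mice, *Dll1* stood at 27.2 and 52.5 against 50.4 and 47.5 CPM, and the log2 change had the other sign (-0.25, SE 0.27, adjusted p = 0.88). The difference between classes was itself tested with the mouse as a block, against references of which all but stroma-like cells were chosen after the values were seen. The change in cluster 5 differed from that in cluster 1 by -1.41 on the log2 scale (SE 0.27, adjusted p = 0.019) in a comparison in which 0.276% of the genes were called, and from that in early PT-like cells by -1.95 (SE 0.38, adjusted p = 0.017), where 0.423% were called. The first of these calls was lost without mouse 1 (adjusted p = 0.44) or mouse 3 (0.065), and the second without mouse 2 (0.45). Both were also lost between the largest finer clusters of the classes, where the differences were -1.34 (adjusted p = 0.057) and -1.35 (adjusted p = 0.16). Against stroma-like cells, which the transgene does not reach, the difference was -2.49 (SE 0.76) and was not called (adjusted p = 0.26, 0.219% of the genes called), with 17 *Dll1* UMIs in all in those cells. The same comparison gave -2.02 in PT-like cells (adjusted p = 0.71, 0.266% called) and -2.03 in cluster 6 (adjusted p = 0.95, 0.153% called). Against cluster 9 and renal vesicle-like cells it was -1.66 (adjusted p = 0.17, 0.393% of the genes called) and -1.55 (adjusted p = 0.19, 1.77% called), and both rested on mouse 2, being -0.34 and -0.44 without it.

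**Figure D2:**
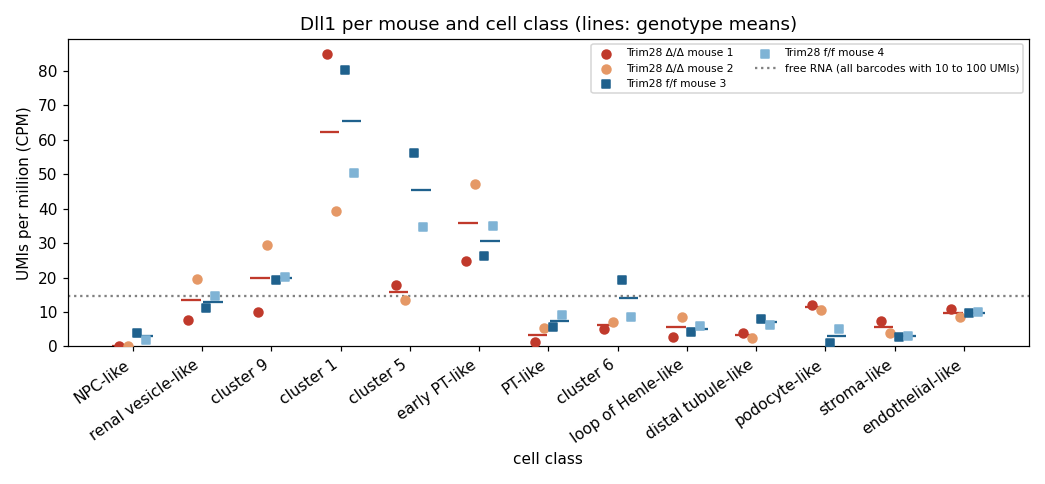
Dll1 in CPM (vertical axis) for each mouse in 11 classes of the nephron lineage and in stroma-like and endothelial-like cells; short lines are genotype means and the dotted line is the level in free RNA alone (14.7 CPM). In cluster 5 the Trim28 Δ/Δ mice (17.9 and 13.5 CPM) lie below the Trim28 f/f mice (56.1 and 34.6 CPM), while in cluster 1 the genotypes interleave.

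*Hes1* behaved differently from class to class. In NPC-like cells it stood at 171 and 161 CPM in mice 1 and 2 against 84.3 and 94.3 CPM in mice 3 and 4. In early PT-like cells it stood at 162 and 119 against 89.5 and 66.0 CPM, and in stroma-like cells at 59.8 and 76.1 against 139 and 80.2 CPM. Both *Trim28* Δ/Δ mice were thus above both *Trim28* f/f mice in the first pair of classes and below them in stroma-like cells. Over the 19 classes *Hes1* lay above in 5, which also include cluster 6 and immune-like and erythroid-like cells, and below in 4, which also include clusters 1 and 14 and mural-like cells. In the tests of all genes these shares were 21.6% and 15.2%. The log2 change in cluster 6 ranged from 0.11 to 0.68 leaving out each mouse. Its sign turned when cells were assigned to mice by k-means and clustered anew, which changed the cells in the class. The order in early PT-like cells rests partly on the cluster made up mostly of mouse 3, in which that mouse had 51.6 CPM of *Hes1*. In the largest finer cluster of early PT-like cells, *Hes1* stood at 173 and 124 against 136 and 66.0 CPM, so that the genotypes overlapped (log2 change 0.54, SE 0.30, adjusted p = 0.75, with 0.33% of the genes called). Within each class the difference was not called, with log2 changes of 0.76 (SE 0.24, adjusted p = 0.29) in NPC-like cells, 0.81 (SE 0.22, adjusted p = 0.34) in early PT-like cells and -0.77 (SE 0.30, adjusted p = 0.99) in stroma-like cells, where 0.696%, 0.391% and 0.0% of the genes were called.

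The difference between those changes was called. Each of the 18 classes other than stroma-like cells was compared with them in this way. The p-values were adjusted within a comparison and not across comparisons. In NPC-like cells the change of *Hes1* exceeded that in stroma-like cells by 1.43 on the log2 scale (SE 0.32, adjusted p = 0.037), in a comparison in which 0.367% of the genes were called. In early PT-like cells it did so by 1.54 (SE 0.26, adjusted p = 0.0035, 0.202% of the genes called), and in the largest finer cluster of those cells by 1.30 (SE 0.27, adjusted p = 0.017, 0.33% called). The second call held without mouse 2, mouse 3 or mouse 4 and was lost without mouse 1 (1.17, adjusted p = 0.33), and the first was lost without mouse 1 (1.27, adjusted p = 0.15), mouse 2 (1.64, adjusted p = 0.14) or mouse 3 (0.94, adjusted p = 0.31). Much of the stromal value rests on mouse 3, since the log2 change of *Hes1* in stroma-like cells was -0.29 without it. The difference from stroma-like cells was above 0 in 17 of the 18 other classes, among them classes that the transgene does not reach. It was 1.74 in erythroid-like cells (SE 0.46, adjusted p = 0.18, 0.0481% called) and 1.23 in immune-like cells (SE 0.37, adjusted p = 0.50, 0.0308% called).

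Other values moved with *Hes1* in these classes. In NPC-like cells the 8 NPC markers summed to 927 and 1026 CPM in mice 1 and 2 against 1616 and 1457 CPM. Of the 8, 4 were below and 1 above in both *Trim28* Δ/Δ mice. *Cited1*, a marker of uninduced progenitors, was called lower (log2 change -3.01, SE 0.24, adjusted p = 3.3e-05). *Six2* (log2 change -0.35, adjusted p = 0.90) and *Crym* (0.70, adjusted p = 0.30) were not called. Of the 6 early distal markers, 5 were higher and 1 was lower in both *Trim28* Δ/Δ mice. NPC-like cells numbered 14, 33, 85 and 212 in mice 1 to 4. In early PT-like cells 7 of the 8 markers of the mature proximal tubule were lower in both *Trim28* Δ/Δ mice, with sums of 578 and 686 against 1298 and 1339 CPM, and *Slc34a1* and *Lrp2* were called. Haemoglobin transcripts stood at 4620.5 and 3897 against 1501 and 1198 CPM there, and *Hes1* less the part from free RNA was 146 and 105 against 84.2 and 61.7 CPM, so that the mice kept their order. In stroma-like cells the 8 stroma markers summed to 7322 and 6454 against 5683 and 3908 CPM, with 2 above and 0 below in both *Trim28* Δ/Δ mice. The 5 renal vesicle markers there summed to 387 and 480 against 306 and 254 CPM, with 3 above and 0 below. The part of these markers in the *Hes1* values was not tested.

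In cluster 5 *Hes1* was at 219 and 218 against 271 and 184 CPM, with both *Trim28* Δ/Δ mice between the *Trim28* f/f mice (log2 change -0.10, SE 0.17, adjusted p = 0.94). This change was lower than that in early PT-like cells by 0.89 on the log2 scale (difference -0.89, SE 0.18, adjusted p = 0.021), a call lost without mouse 1 (adjusted p = 0.23) and between the largest finer clusters (-0.65, adjusted p = 0.20). In cluster 1 mouse 3 was highest at 235 CPM beside 150.4, 109 and 155 CPM in mice 1, 2 and 4 (log2 change -0.58, adjusted p = 0.83). In loop of Henle-like and distal tubule-like cells *Hes1* had adjusted p-values of 0.79 and 0.895.

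**Figure D3:**
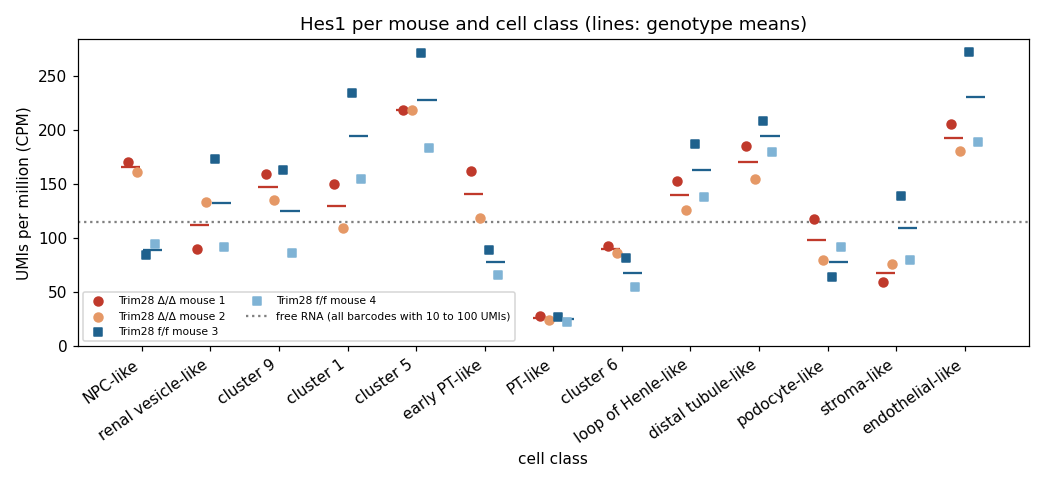
Hes1 in CPM (vertical axis) for each mouse in 11 classes of the nephron lineage and in stroma-like and endothelial-like cells; short lines are genotype means and the dotted line is the level in free RNA alone (115 CPM). The Trim28 Δ/Δ mice lie above the Trim28 f/f mice in NPC-like and early PT-like cells and below them in stroma-like cells, where mouse 3 is high (139 CPM).

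*Jag1* was not called in any class. In loop of Henle-like cells it stood at 43.2 and 34.4 CPM in mice 1 and 2 against 120.1 and 50.6 CPM, so that mouse 3 was far above the rest (log2 change -1.19, SE 0.38, adjusted p = 0.48, with 0.193% of the genes called), and without mouse 3 the log2 change was -0.39. The cluster held almost wholly by mouse 3 had 208 CPM of *Jag1* in that mouse. In the largest finer cluster of these cells, with 115, 114, 115 and 97 cells of the mice, *Jag1* stood at 42.4 and 35.3 against 44.6 and 46.3 CPM (log2 change -0.23, SE 0.20, adjusted p = 0.89, with 0.0911% of the genes called). In cluster 9 it stood at 81.2 and 86.2 against 141 and 105 CPM (log2 change -0.64, SE 0.23, adjusted p = 0.58, with 0.434% of the genes called). In cluster 5 the values were 88.6 and 78.7 against 114 and 98.0 CPM (log2 change -0.39, adjusted p = 0.53). The genotypes did not overlap in these 3 classes, and *Jag1* was above in both *Trim28* Δ/Δ mice in another 3. Those were NPC-like cells, with 15.5 and 23.0 against 11.03 and 12.7 CPM, podocyte-like cells, with 27.1 and 26.7 against 23.5 and 12.8 CPM, and erythroid-like cells, with 17.6 and 57.0 against 16.8 and 13.7 CPM. In podocyte-like and erythroid-like cells *Jag1* was not tested and had 41 and 44 UMIs in all. Free RNA, which held 73.7 CPM of *Jag1*, made up an estimated 29.1% and 18.4% of the UMIs there. Of the 17 classes in which *Jag1* was tested, it was below in 3 and above in 1, beside 15.2% and 21.6% of the tests of all genes. Without mouse 3 the log2 change in cluster 9 was -0.38. In the largest finer cluster of cluster 9 *Jag1* stood at 109.6 and 102 against 161 and 111 CPM (log2 change -0.46, SE 0.24, adjusted p = 0.94, with 0.289% of the genes called).

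The receptors were not called either. *Notch1* lay above in both *Trim28* Δ/Δ mice in 7 and below in 2 of the 19 classes, beside 21.6% and 15.2% of the tests of all genes. The 7 include stroma-like and erythroid-like cells, which the transgene does not reach, and all classes share the same 4 mice. *Notch1* in renal vesicle-like cells stood at 135 and 150.3 CPM in mice 1 and 2 against 104 and 85.3 CPM (log2 change 0.48, SE 0.18, adjusted p = 0.41), in the class with the largest share of called genes (1.54%). In cluster 5 it stood at 82.6 and 96.0 against 70.8 and 60.4 CPM (log2 change 0.41, adjusted p = 0.54), and *Notch2*, the receptor most tied to proximal fates, at 26.9 and 25.8 against 17.9 and 16.5 CPM (log2 change 0.57, SE 0.26, adjusted p = 0.57). Both receptors were higher in both *Trim28* Δ/Δ mice of cluster 5, opposite in sign to *Dll1*, and neither passed the adjusted test. *Notch2* in cluster 9, where it was highest, had 62.4 and 48.0 against 67.1 and 51.9 CPM, and the genotypes interleaved. *Notch3* in mural-like cells had 174 and 179 against 154 and 109.8 CPM.

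*Lfng* in cluster 9 stood at 10.2 and 16.7 CPM in mice 1 and 2 against 25.8 and 28.9 CPM (log2 change -1.05, SE 0.37, adjusted p = 0.54). In the largest finer cluster it stood at 18.3 and 18.4 against 33.96 and 31.6 CPM (log2 change -0.91, SE 0.34, adjusted p = 0.90). In cluster 1, its highest class, it stood at 41.9 and 25.5 against 28.3 and 35.8 CPM, with the *Trim28* f/f mice between the others.

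*Hes5* in renal vesicle-like cells stood at 14.01 and 34.9 CPM in mice 1 and 2 against 10.2 and 3.45 CPM (log2 change 1.83, SE 0.56, adjusted p = 0.23), on 86 UMIs in all. The log2 change was 0.99 without mouse 2 and 2.72 without mouse 3. Both *Trim28* Δ/Δ mice were higher, but mice of the same genotype differed from each other by more than mouse 1 did from mouse 3. In early PT-like cells *Hes5* stood at 26.1 and 28.4 against 5.65 and 21.3 CPM, with mouse 3 at 11.04 CPM in the largest finer cluster, and in cluster 5, where *Dll1* fell, at 21.9 and 16.0 against 8.75 and 29.4 CPM, so that the genotypes overlapped there.

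*Hey1* had lower values in *Trim28* Δ/Δ mice in several classes, with no call. In cluster 5 it stood at 7.96 and 14.1 CPM in mice 1 and 2 against 23.9 and 23.2 CPM (log2 change -1.05, SE 0.32, adjusted p = 0.26), and in cluster 9 at 46.4 and 64.7 against 117 and 73.7 CPM (log2 change -0.85, SE 0.29, adjusted p = 0.49). In loop of Henle-like cells it stood at 2.20 and 3.44 against 9.15 and 7.42 CPM (log2 change -1.59, adjusted p = 0.42), and in PT-like cells at 2.37 and 1.197 against 4.31 and 7.20 CPM (log2 change -1.67, adjusted p = 0.24, with 0.463% of the genes called). The genotypes did not overlap in any of these 4 classes, and *Hey1* was below in 6 and above in 0 of the 10 classes in which it was tested, a count that is not independent over classes of the same mice and stands beside 15.2% and 21.6% of the tests of all genes. In the largest finer cluster of cluster 9 *Hey1* stood at 78.3 and 76.0 against 143 and 79.9 CPM (log2 change -0.62, SE 0.30, adjusted p = 0.94). Without mouse 3 the log2 change in cluster 9 was -0.44, and without mouse 2 that in cluster 5 was -1.59. In renal vesicle-like cells, its highest class, *Hey1* stood at 82.8 and 91.5 against 109.8 and 63.0 CPM, inside the spread of the *Trim28* f/f mice. *Heyl* was below in 0 and above in 4 of the 13 classes in which it was tested, beside the same shares of all genes. It had no unadjusted p under 0.05 in the 19 classes, and in mural-like cells it stood at 90.1 and 194 against 93.7 and 99.1 CPM.

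Outside the nephron lineage, unadjusted p-values under 0.05 were found for *Hes1* and *Hey1* in cluster 14, with log2 changes of -0.96 and -1.64, for *Hes1* and *Notch1* in erythroid-like cells, with 1.03 and 1.32, and for *Hes1* in stroma-like cells. None was called, and no gene at all was called in cluster 14 or in stroma-like or erythroid-like cells. With 1 mouse fewer, *Hes1* in cluster 14 ranged from -1.45 to -0.41 and was called without mouse 4 (adjusted p = 2.3e-04). In erythroid-like cells *Hes1* ranged from 0.57 to 1.36 and *Notch1* from 0.87 to 1.996. Immune-like cells, where 0.0288% of the genes were called and 5 members were tested, had no member with an unadjusted p under 0.05. The same held for podocyte-like cells, a class of the nephron lineage, where 0.0928% of the genes were called and only 2 members were tested.

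**Figure D4:**
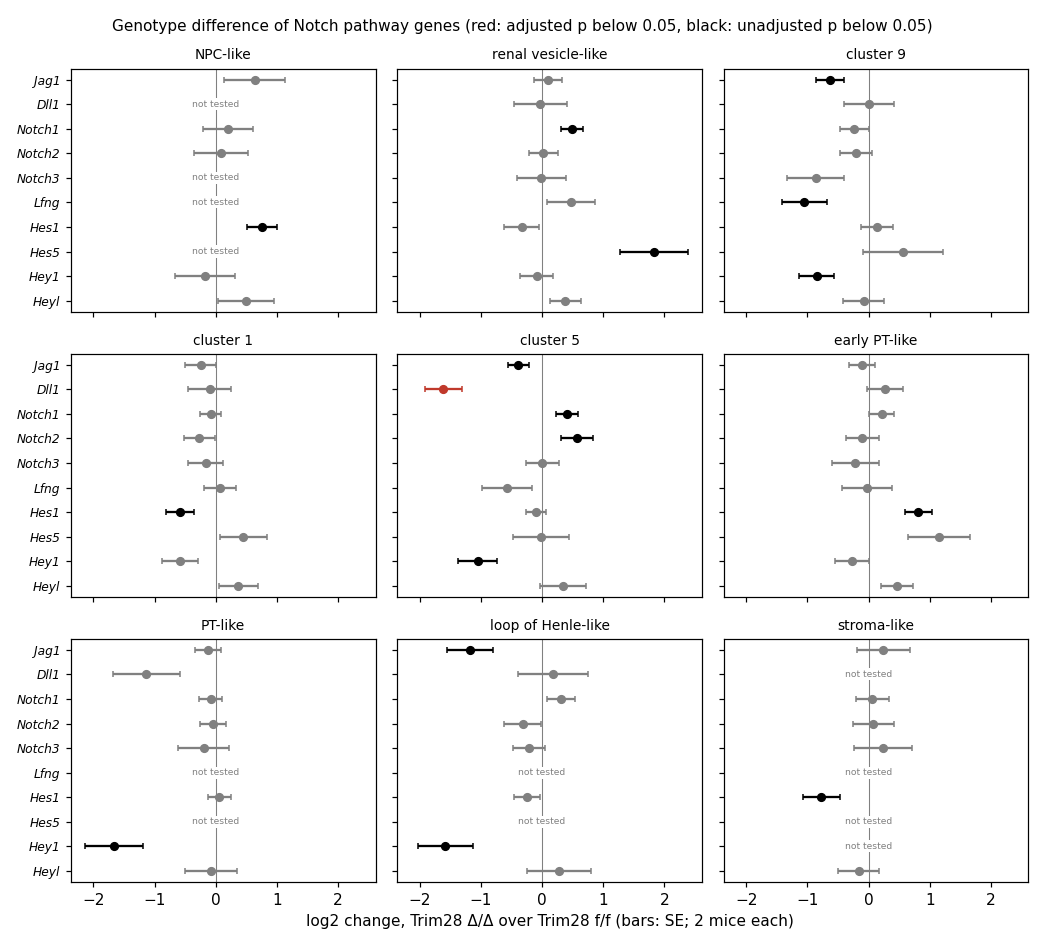
Log2 change of each member (Trim28 Δ/Δ over Trim28 f/f, horizontal axis) with its SE in 9 classes, from 2 mice per genotype; red marks an adjusted p below 0.05 and black an unadjusted p below 0.05. The only red point is Dll1 in cluster 5 (-1.61), and Hes1 lies to the right in NPC-like and early PT-like cells and to the left in stroma-like cells.

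The members were also read within a list of 51 genes of the pathway, which adds further ligands and receptors, the enzymes that modify, ubiquitinate and cleave them, the nuclear complex around RBPJ and the inhibitors of the NUMB, Itch and Deltex kind. The list gave 614 tests in the 19 classes, and *Dll1* in cluster 5 was the only one called. In cluster 5, 42 of the 51 were tested, none was called higher and 1 lower, and their median log2 change was -0.01 beside -0.01 over all genes tested. In renal vesicle-like cells 42 were tested, none was called in either direction, and the median was 0.04 beside -0.01. In NPC-like cells 29 were tested with no call and a median of 0.06 beside -0.02. In early PT-like cells 42 were tested with no call and a median of 0.04 beside -0.01. The median of the 10 members was -0.06 in cluster 5, where 4 had log2 changes above 0 and 6 below, and 0.06 in renal vesicle-like cells, with 6 above 0 and 4 below.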

How the data were processed

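A single pool of kidneys was measured as a gene expression library and a CMO library, which share their barcodes. Alignment and counting were done by the authors in Cell Ranger (6.0.0 in the submitters' processing notes, 4 in the matrix header) and the deposited counts are raw UMIs of 32285 genes and 12 tags over 3921239 barcodes, empty droplets included. The notes name GRCm38 and mm10 without saying which step used which. Use of strand in counting: not given in the sources used here. Mouse and genotype came from the list of tags, also deposited by the authors. The 6 bulk samples of the series were not analysed here, and 4508 cells with 1 of 4 tags that the list does not name were left out.

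Barcodes of 6891 UMIs or more, the order-of-magnitude cut for 24000 expected cells, were taken as cells. Those under 200 genes or over 10% mitochondrial UMIs were dropped. HTODemux (Seurat 5.3.0, R 4.3.3, positive quantile 0.99) assigned cells to mice. Cells with several tags (4721) were removed as doublets. Cells with no tag (2680) were removed because they could not be assigned to a mouse. Removal of cells marked by Scrublet was an alternative. Clustering used sctransform 0.4.2, 3000 variable genes less the 16 of the Notch list among them, 30 principal components and a resolution of 0.8. A cluster was named from a list of markers, with 10 CPM added. A name needed a mean log2 ratio of at least 0.5 and 3 or more markers raised 1.5-fold and seen in 10% of its cells. It also needed a marker among the 10 leading genes and no other type with more. The mean log2 ratio had to be at least 0.5 of the highest of that name. These limits were chosen with the clusters in view, so that a difference from the study by cell type can come from the rebuilt names.

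UMIs were summed per mouse and class, passed through filterByExpr, scaled by TMM and compared by edgeR's quasi-likelihood test (edgeR 4.0.16), the genotype being the only term. The study's own test treated cells as replicates, which was not done here. SEs were the log2 change divided by the root of the F statistic. Interactions had the mouse as a block. The scripts were tested on simulated data. DESeq2 1.42.0, relative log expression factors, no filter, leaving out each mouse, k-means in HTODemux, resolution 1.2, the Notch genes kept in clustering and Scrublet were alternatives, and others were chosen after seeing the data. CPM in the text are per 1000000 UMIs of a class, without TMM. Nothing in the labels shows separate litters, and p-values measure the spread between these mice only.

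The text names the 10 members in every class, called genes of the Notch list, the 3 genes most like each member, *Trim28* and marker genes. The members and the lists were chosen with earlier results of these data known. Intervals are exact (Clopper-Pearson, scipy 1.17.1), at 95%, and cover counting error only.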

Additional observations from a re-analysis of the deposited data

Results flagged for a closer look

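Differences of the genotype change between classes passed their own test (edgeR interaction, adjusted p below 0.05) for *Hes1* and *Dll1*. The change of *Hes1* was higher by 1.43 on the log2 scale in NPC-like than in stroma-like cells and by 1.54 in early PT-like than in stroma-like cells, with 2 of 2 *Trim28* Δ/Δ mice above both *Trim28* f/f mice in the former classes and 2 of 2 below them in stroma-like cells. In the largest cluster of early PT-like cells at resolution 1.2, which leaves out a cluster made up mostly of mouse 3, the difference was 1.30 (adjusted p = 0.017), but *Hes1* was lower in mouse 2 (124 CPM) than in mouse 3 (136 CPM). The difference from stroma-like cells was above 0 in 17 of 18 classes, among them erythroid-like and immune-like cells, which the transgene does not reach. Without mouse 3 the log2 change of *Hes1* in stroma-like cells was -0.29. The *Hes1* change in cluster 5 differed from that in early PT-like cells by -0.89. The *Dll1* change in cluster 5 differed from that in cluster 1 by -1.41 and from that in early PT-like cells by -1.95. The pairs with cluster 5 and a class other than stroma-like cells were chosen after the values were seen. Each of these calls was lost when at least 1 of the 4 mice was left out, and the 3 calls with cluster 5 were also lost between the largest clusters of resolution 1.2.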

How the results depend on the processing

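Calls of the 10 members were few and moved with the fit. *Dll1* in cluster 5 was the call of the main setting there (1 member), DESeq2 called 0, and leaving out each mouse in turn gave 0 to 3 members. With no filter on low counts, 1 member was called in cluster 1 (*Hes1*), 2 in early PT-like cells, 1 in loop of Henle-like cells (*Jag1*) and 1 in renal vesicle-like cells (*Hes5*), and none in the main setting; the counts leaving out each mouse ranged from 0 to 1 in NPC-like, endothelial-like, intercalated-like and stroma-like cells and in clusters 1, 6 and 14, from 0 to 2 in renal vesicle-like cells, cluster 9 and the collecting duct classes combined, from 0 to 3 in loop of Henle-like cells and from 0 to 5 in early PT-like cells. Most of these came without mouse 4, when the spread of mouse 3 alone was taken from the other genotype. The log2 change of *Dll1* in cluster 5 kept its sign throughout (-1.92 to -1.21 without each mouse) and stayed called with k-means (adjusted p = 0.0038), resolution 1.2, the Notch genes kept in clustering and Scrublet. It also stayed called in the largest cluster of resolution 1.2 within cluster 5 (adjusted p = 0.024), an alternative chosen after seeing the data. Leaving out each mouse, the *Hes1* difference from stroma-like cells ranged from 0.94 to 1.88 in NPC-like and from 1.17 to 1.98 in early PT-like cells, and the *Dll1* difference between cluster 5 and stroma-like cells from -2.74 to -1.98. *Hes1* in cluster 6 changed sign with k-means assignment (0.48 to -0.30). That setting also clustered the cells anew. Cluster 6 then held 60, 75, 86 and 23 cells of mice 1 to 4, in place of 131, 172, 17 and 71. The cause of the change of sign was not tested. No paired analysis was possible because the mice carry the numbers 1 and 2 in one genotype and 3 and 4 in the other, and the bulk samples were not analysed. Low counts limit *Hes5*, *Lfng* and *Dll1* outside the forming nephron, and *Hey1* in loop of Henle-like and PT-like cells.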
